A study of Rattus norvegicus and Mus musculus with 22 samples.

Results

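Loss of interleukin 6 (IL-6) was examined in cells isolated from rat lung by magnetic sorting (MACS) on CD4. All of the rats were given Sugen-hypoxia, a VEGF receptor inhibitor combined with low oxygen that models pulmonary hypertension, and all isolates were taken at day 7. The members were the 4 libraries of this kind among 22 in the series: 2 from rats labelled IL6KO and 2 from rats labelled wild type (WT). All 22081 gene symbols of their raw count table were used. Whole lung of day 7 Sugen-hypoxia rats, with 3 IL6KO and 3 WT libraries, served for comparison. The sources used here give no strain, sex, age or number of rats behind a library and do not say which part of Il6 is missing. They do not say that replicates came from separate animals either, so the p-values measure only the spread between these samples.

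IL-6 binds its receptor IL-6R, and the pair engages gp130 (encoded by Il6st) on the cell surface. The kinases JAK1 and JAK2 then activate the transcription factor STAT3, which induces SOCS3, a feedback inhibitor of gp130 signalling. In T cells IL-6 favours Th17 differentiation, in which the transcription factor BATF takes part. In the rat, unlike the mouse, monocytes and macrophages also carry CD4, so a CD4 isolate of rat lung can hold both T cells and macrophages.

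The libraries held 11899277 and 11477533 counts in IL6KO isolates and 11669682 and 12930732 counts in WT isolates. Levels below are in CPM, counts set relative to library size and scaled by TMM. Fold changes are IL6KO over WT on the log2 scale, with a standard error (SE). The SE is the size of the fold change over the square root of the F statistic of edgeR's test, and was not estimated separately. A gene was called when the adjusted p of edgeR's quasi-likelihood test was under 0.05. For a gene at 0 counts the limit was taken as 3 counts, which is 0.232 to 0.261 CPM by library and covers counting error only. The first principal component held 61.6% of the variance and separated the genotypes, and the second, with 21.2%, separated the IL6KO libraries from each other.

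The label was checked with the T cell marker Cd3e, with Cd4, which rat macrophages carry as well, and with Csf1r, the receptor that macrophages need for survival. Cd3e, a chain of the T cell receptor complex, had 490 and 447 CPM in IL6KO isolates and 632 and 613 CPM in WT isolates. Cd4 had 771 and 738 CPM in IL6KO isolates, against 611 and 642 CPM in WT isolates. Csf1r had 1519 and 1526 CPM in IL6KO isolates, against 919 and 870 CPM in WT isolates. Csf1r was thus above Cd3e in CPM in each of the 4 libraries, so the isolates held macrophage RNA beside T cell RNA. Csf1r was higher in IL6KO isolates by 0.77 (SE 0.07, adjusted p = 0.00388) and Cd3e lower, at -0.41 (SE 0.08, adjusted p = 0.0315). The Cd3e call ended without IL6KO 2, without WT 1 and without WT 2 (adjusted p of at most 0.218) and when library size was set to T cell counts (adjusted p = 0.463). Scaling to T cell counts holds their sum equal between libraries, so the loss of a T cell gene's call there is largely built in. The Cd4 change of 0.27 (SE 0.08) was not called (adjusted p = 0.0832). Within a library there were 0.323 and 0.293 Cd3e counts per Csf1r count in IL6KO isolates, against 0.688 and 0.705 in WT isolates. In bulk samples fewer cells of a type and less RNA per cell cannot be told apart.

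Summed CPM of fixed marker sets are given here for these and for other cells. The 12 T cell markers summed to 2942 and 2651 CPM in IL6KO isolates and to 3511 and 3497 CPM in WT isolates, against 64.5 to 116 CPM in whole lung. The 14 macrophage and monocyte markers summed to 10102 and 14528 CPM in IL6KO isolates and to 9656 and 9335 CPM in WT isolates. In whole lung they summed to more, at 16543 to 21749 CPM. The 3 alveolar epithelial markers summed to 463 and 477 CPM in IL6KO isolates and to 2073 and 1408 CPM in WT isolates, well under the 16726 to 21545 CPM of whole lung. The genotypes did not overlap in these 3 sums: those of T cell and epithelial markers were lower and that of macrophage and monocyte markers was higher in IL6KO isolates. For macrophage and monocyte markers the 2 IL6KO sums differed from each other by more than the lower one did from WT. The lysozyme gene Lyz2 carried much of this sum, at 4.18 and 6.32 counts per Csf1r count in IL6KO isolates and 7.52 and 7.22 in WT isolates. The sum over 5 alveolar macrophage markers was lower in IL6KO isolates, also without overlap, at 351 and 422 CPM in IL6KO isolates and 495 and 560 CPM in WT isolates. Its members were split, however: of 4 tested, 1 was called higher and 1 lower, with a median change of 0.24. With 2 libraries a genotype, a lack of overlap is often met without any effect, for sums as for single genes, and is weak evidence by itself. The 3 erythroid markers summed to 11722 and 5702 CPM in IL6KO isolates and to 1774 and 2726 CPM in WT isolates. The erythroid sum was thus above that of T cell markers in both IL6KO isolates and below it in both WT isolates. The 4 neutrophil markers summed to 476 and 382 CPM in IL6KO isolates and to 536 and 1131 CPM in WT isolates. The dendritic cell marker Xcr1 was at 0 in all 4 isolates. The mitochondrial share of counts was 5.50% and 6.11% in IL6KO isolates and 7.86% and 7.78% in WT isolates. The part of these differences in the gene results below was not tested except where a value is given.

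**Figure D1:**
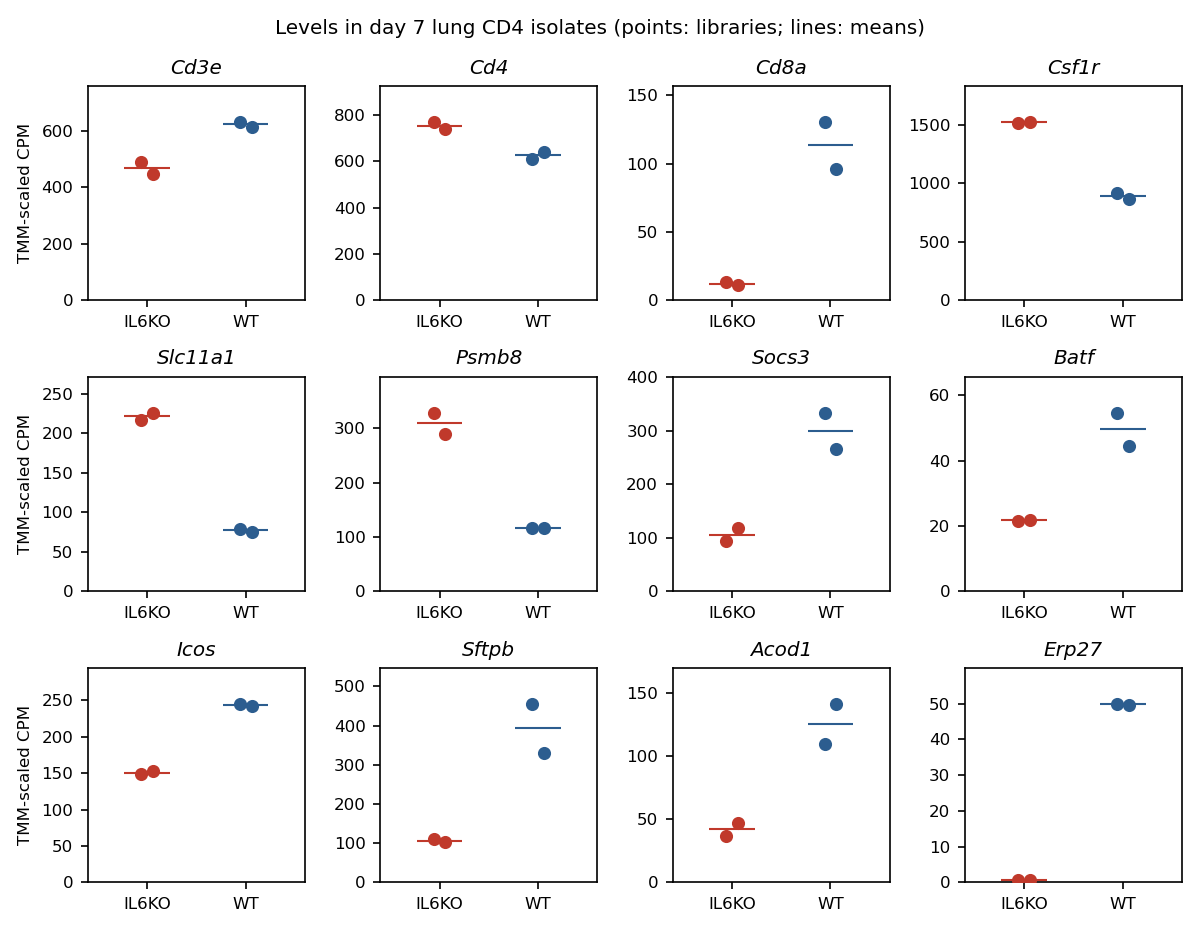
TMM-scaled CPM (vertical axes, from 0) of 12 genes in the day 7 lung CD4 isolates, IL6KO left and WT right, with points for libraries and lines for the mean of 2. Csf1r, Slc11a1, Psmb8 and Cd4 lie higher in IL6KO isolates and the other 8 genes lie lower, with no overlap of the genotypes. Cd4 was not called.

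Of 12243 genes tested, 784 were called (6.40%). In IL6KO isolates 428 of them were higher (3.50% of those tested) and 356 were lower (2.91%). Larger changes leaned the other way, since among called genes with a log2 fold change of at least 1 in size 75 were higher and 181 lower. The median over all tested genes was -0.004. These counts rested on both WT libraries: 76 genes were called without WT 1 and 115 without WT 2, of which 56 and 88 were among the 784. The balance turned as well, with 29 higher and 47 lower without WT 1 and 42 higher and 73 lower without WT 2. A total of 45 genes, 15 higher and 30 lower, were called under each of the 11 alternatives that tested them, the fold-change limit aside. Of the 132 called genes that the naming rule and later choices picked, 103 lost the call without WT 1 or without WT 2. When library size was set to the summed T cell identity counts, chosen after the data were seen, 3418 genes were called and 93.2% of them were higher, against 54.6% of the 784. That scaling moved the median of all genes to 0.31, so directions of small changes depend on it. Calls in the gene lists below are to be read beside the shares of all genes, 3.50% higher and 2.91% lower. A list with 1 or 2 calls can lie near those shares.

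**Figure D2:**
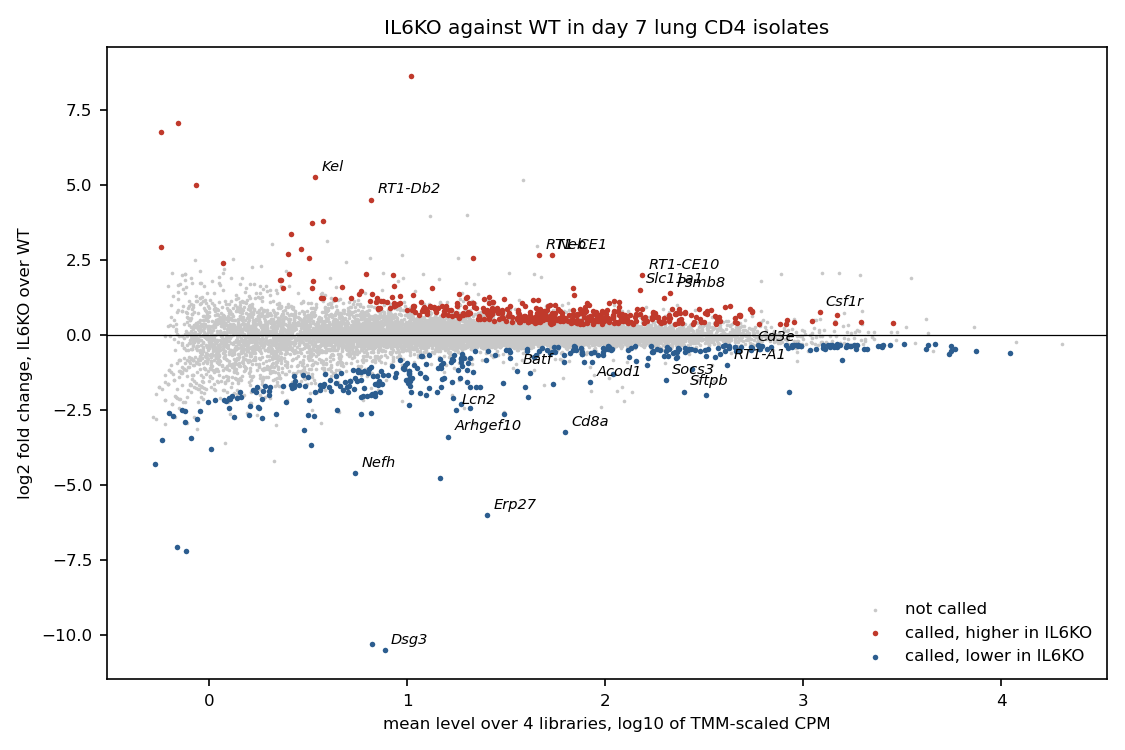
Log2 fold change of IL6KO over WT (vertical axis) against the mean level over the 4 isolates (horizontal axis, log10 of TMM-scaled CPM) for the 12243 genes tested. Red points are the 428 genes called higher in IL6KO and blue points the 356 called lower. Dsg3 is among the lowest points, and Csf1r stands out among abundant genes called higher.

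Among the genes of the IL-6 pathway the ligand itself was scarce. Il6 had 8 and 17 counts in IL6KO isolates and 48 and 20 counts in WT isolates, and the change of -1.41 (SE 0.62) was not called (adjusted p = 0.234). Since a deleted gene may still be transcribed in part, Il6 counts are a weak check of genotype. Il6r, the ligand-binding receptor, had 287 and 283 CPM in IL6KO isolates and 204 and 189 CPM in WT isolates, so the genotypes did not overlap. It was higher by 0.54 (SE 0.08, adjusted p = 0.0152). Without WT 1, and without WT 2, it was no longer called (adjusted p of at most 0.115). Set against Csf1r, Il6r turned the other way, with 0.189 and 0.185 counts per Csf1r count in IL6KO isolates and 0.222 and 0.217 in WT isolates. Il6st was at 89.6 and 96.7 CPM in IL6KO isolates and at 105 and 88.8 CPM in WT isolates, and the ranges overlapped (log2 fold change -0.06, SE 0.11). Il6r was the 1 called gene of the 12 tested of the IL-6 ligand and receptor list, whose median was -0.12.

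Socs3, the feedback inhibitor induced by STAT3, fell most clearly in this pathway. It had 93.9 and 118 CPM in IL6KO isolates, against 333 and 265 CPM in WT isolates. Both IL6KO libraries lay far below both WT libraries, and the change was -1.50 (SE 0.16, adjusted p = 0.00897). The call held under all 11 alternatives, with a change between -1.67 and -1.17 and an adjusted p of at most 0.0492. The genotypes were apart as well against a gene of either cell type: 0.191 and 0.264 Socs3 counts per Cd3e count in IL6KO isolates against 0.528 and 0.433 in WT isolates, and 0.0618 and 0.0772 per Csf1r count in IL6KO isolates against 0.363 and 0.305 in WT isolates.

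Batf, an AP-1 family transcription factor needed for Th17 cells, had 21.6 and 21.9 CPM in IL6KO isolates and 54.6 and 44.4 CPM in WT isolates. The IL6KO libraries agree closely with each other and lie below both WT libraries (log2 fold change -1.19, SE 0.13, adjusted p = 0.00516), and this call too held under all 11 alternatives. Socs1, a sister inhibitor of JAK kinases, had 5.47 and 5.55 CPM in IL6KO isolates and 12.9 and 9.59 CPM in WT isolates. Its change of -1.02 (SE 0.22, adjusted p = 0.0365) lost the call in 6 of 11 alternatives, among them the runs without WT 1 and without WT 2 (adjusted p of at most 0.239).

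The rest of the pathway was mixed. Of 22 tested JAK, STAT and SOCS genes, 2 were higher and 3 lower, with a median of -0.06 that was 0.26 with library size set to T cell counts. The third lower gene beside Socs3 and Socs1 was Socs5, another family member, chosen after its values were seen (-0.46, SE 0.10). Ptpn6, the phosphatase SHP-1 that dampens JAK signalling and is abundant in blood cells, was at 402 and 368 CPM in IL6KO isolates and at 188 and 231 CPM in WT isolates (0.88, SE 0.11, adjusted p = 0.00897; adjusted p = 0.0759 without WT 1). Stat3 itself had 201 and 205 CPM in IL6KO isolates and 288 and 238 CPM in WT isolates, a change of -0.37 (SE 0.11) that was not called. The changes of Jak1 (-0.19) and Jak2 (-0.13) were not called either. Of 25 tested STAT3 target genes, Socs3 and Batf were the 2 called, both lower, and the median was -0.06 (0.27 with library size set to T cell counts).

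The 250 bases before the RefSeq start of Socs3, Batf and Socs1 are shown because these genes belong to the pathway that the knockout removes (GRCr8, 5′ to 3′ on the gene's strand). Capitals mark matches to TTCNNNGAA, the palindromic motif bound by STAT dimers, which reads the same on both strands; it was the 1 motif searched, and so overlaps no other.
Socs3, chr10:103694769-103695018, minus strand: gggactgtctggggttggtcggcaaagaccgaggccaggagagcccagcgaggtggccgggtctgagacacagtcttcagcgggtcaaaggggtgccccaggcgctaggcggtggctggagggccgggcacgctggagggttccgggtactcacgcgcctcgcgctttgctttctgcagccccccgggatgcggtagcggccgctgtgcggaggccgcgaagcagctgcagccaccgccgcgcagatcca
Batf, chr6:111084467-111084716, plus strand: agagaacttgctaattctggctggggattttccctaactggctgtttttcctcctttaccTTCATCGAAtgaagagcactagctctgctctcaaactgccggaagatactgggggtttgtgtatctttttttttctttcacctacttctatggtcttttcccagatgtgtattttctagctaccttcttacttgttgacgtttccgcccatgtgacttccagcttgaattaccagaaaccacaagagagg
Socs1, chr10:5389324-5389573, plus strand: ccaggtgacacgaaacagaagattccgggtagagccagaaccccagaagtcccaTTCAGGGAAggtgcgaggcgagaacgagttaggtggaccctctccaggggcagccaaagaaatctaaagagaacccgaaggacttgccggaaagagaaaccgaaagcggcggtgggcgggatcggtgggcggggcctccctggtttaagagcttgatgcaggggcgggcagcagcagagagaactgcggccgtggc
Batf and Socs1 each hold 1 match, starting 190 and 196 bases before the start, and these letters are not in the Socs3 window. The motif is in 7.67% of the 33469 RefSeq promoter windows of this length. Over the pathway lists it is in 3 of the 19 STAT3 target genes with a window and in 2 of the 15 JAK, STAT and SOCS genes, and 3 of the genes that hold it, Bcl2l1, Icam1 and Cish, were not called. A match is a description of letters, not a binding site. Only the 250 bases before the RefSeq start used here were searched. Whether Socs3 holds the motif further away or before another start was not tested.

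Of 22 tested T cell identity genes, 5 were called lower and 0 higher, and 1 of the 22 had a change above 0 (median -0.29). Cd247, the zeta chain of the T cell receptor complex, changed by -0.50 (SE 0.09) and Tcf7, a transcription factor of naive and memory T cells, by -0.45 (SE 0.08). Cd2, an adhesion receptor of T cells, changed by -0.42 (SE 0.08). Setting library size to the summed counts of this list holds that sum equal between libraries. A loss of its calls under that scaling is therefore built in and is no test of them. No member was called without WT 1, without WT 2 or with library size set to the summed counts of this list, and under that last scaling the median was 0.02. The naive T cell list likewise had 4 of 12 members called lower and 0 higher (median -0.38), and 0 called without WT 1 or without WT 2.

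The coreceptor Cd8a stood apart from the other T cell genes. It had 13.2 and 10.9 CPM in IL6KO isolates, against 131 and 96.1 CPM in WT isolates. No library of one genotype came near the other, the change was -3.23 (SE 0.19, adjusted p = 0.00327), and the call held under all 11 alternatives. Cd8a counts per Cd3e count were 0.0269 and 0.0245 in IL6KO isolates and 0.207 and 0.157 in WT isolates. Cd8b, the partner chain, was lower, at -1.60 (SE 0.22, adjusted p = 0.0103), and was no longer called without WT 1 or WT 2 (adjusted p of at most 0.0848). Cd8a and Cd8b summed to 17.1 and 13.97 CPM in IL6KO isolates and to 141 and 107 CPM in WT isolates, against 9.81 to 18.3 CPM in whole lung. Cd8a thus fell further than its partner chain, and which cells carried the Cd8a RNA was not tested. CD8 T cells are what a CD4 isolation should remove, so a difference in purity and one of genotype cannot be told apart here.

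Of 18 tested Th1 and cytotoxic genes, 5 were lower, 0 were higher and 13 were not called (median -0.26, and 0.06 with library size set to T cell counts). Natural killer cell genes had 2 of 13 members higher and 0 lower (median 0.35). Il18rap, a subunit of the IL-18 receptor, had 43.2 and 43.2 CPM in IL6KO isolates, against 79.7 and 81.4 CPM in WT isolates. It was lower, at -0.90 (SE 0.08, adjusted p = 0.00337) and kept its call in all 11 alternatives. Gzmk, a granzyme of cytotoxic and memory T cells, had 5.63 and 7.90 CPM in IL6KO isolates and 20.4 and 15.1 CPM in WT isolates (-1.39, SE 0.23, adjusted p = 0.0177). Nkg7, a protein of cytotoxic granules, had 6.55 and 7.55 CPM in IL6KO isolates and 12.7 and 17.8 CPM in WT isolates (-1.12, SE 0.21, adjusted p = 0.0272). The Gzmk and Nkg7 calls ended without WT 1 or WT 2 (adjusted p of at most 0.154), and that of Nkg7 also under limma-voom. The list had 1 member lower without either WT library. The granzymes include close copies, among which the counting could split reads.

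Of 17 tested regulatory T cell (Treg) genes, 5 were lower and 0 higher (median -0.38). Icos, a costimulatory receptor of activated T cells, had 148 and 153 CPM in IL6KO isolates and 245 and 242 CPM in WT isolates (-0.69, SE 0.08, adjusted p = 0.00612). Tigit, an inhibitory receptor, changed by -1.10 (SE 0.14) and Il2ra, the high-affinity IL-2 receptor chain, by -0.72 (SE 0.09). Foxp3, the transcription factor that defines Treg cells, was chosen after its values were seen. Its levels overlapped, with 136 and 131 CPM in IL6KO isolates and 129 and 146 CPM in WT isolates (-0.04, SE 0.09, adjusted p = 0.823). Per Cd3e count Foxp3 was at 0.277 and 0.292 in IL6KO isolates and at 0.204 and 0.238 in WT isolates. Of 22 tested activation and checkpoint genes 5 were lower and 1 was higher, including Ctla4 (-0.60, SE 0.10) and Lag3 (-1.16, SE 0.20), both inhibitory receptors. The calls of Icos, Tigit, Il2ra, Ctla4 and Lag3 ended without WT 1 and without WT 2 (adjusted p of at most 0.153), and that of Ctla4 also with library size set to T cell counts. Per Cd3e count Ctla4 overlapped between the genotypes, at 0.333 and 0.414 in IL6KO isolates and 0.438 and 0.409 in WT isolates, while Icos was at 0.302 and 0.342 in IL6KO isolates and 0.388 and 0.395 in WT isolates.

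Of 10 tested Th17 genes, Batf and Il1r1, an IL-1 receptor of Th17 cells, were the 2 called, both lower (20% of the list, against 2.91% of all genes), and the median was -0.44. Il22, a Th17 cytokine, had 1.41 and 2.86 CPM in IL6KO isolates and 6.57 and 2.94 CPM in WT isolates and was not called (adjusted p = 0.249). Among 7 tested Th2 genes 0 were called by edgeR, DESeq2 or limma-voom, and 0 had an unadjusted p under 0.05. Among 31 tested proliferation genes 1 was higher (Aurka, a mitotic kinase, 0.72, SE 0.12) and 1 lower (Mcm4, a replication helicase subunit, -0.43, SE 0.10). Their median was -0.10, and 1 call is 3.23% of the list, near the share of all genes in either direction. The calls of Il1r1, Aurka and Mcm4 ended without WT 1 and without WT 2 (adjusted p of at most 0.218), and that of Mcm4 ended in 7 of 11 alternatives, DESeq2 and limma-voom among them.

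Of 35 tested macrophage and monocyte genes, 9 were called higher and 0 lower, and 30 of the 35 had a change above 0 (median 0.49). Beside Csf1r these included Aif1, an actin-binding protein of macrophages (0.68, SE 0.08), and Adgre1, the F4/80 antigen (0.69, SE 0.09). The C-type lectin receptor Clec4a3 changed by 0.85 (SE 0.12). The lysosome list had 5 of 28 members higher and 0 lower (median 0.20), among them Ctsz, a cathepsin, and Npc1, a cholesterol transporter. Without WT 1 there was 1 macrophage gene called higher and 1 lower, and without WT 2 there were 0, while the medians were 0.38 and 0.53. The Csf1r call ended without WT 2 (adjusted p = 0.0529). With library size set to T cell counts 15 of the 35 were higher and 0 lower. Without IL6KO 2 the macrophage median was 0.24. Lyz2, a lysozyme of the macrophage marker set, was chosen after its values were seen. It had 4.18 and 6.32 counts per Csf1r count in IL6KO isolates and 7.52 and 7.22 in WT isolates. The alveolar macrophage list had 1 of 14 members higher and 1 lower, and its median of 0.47 was -0.21 without IL6KO 2.

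Several abundant myeloid genes differed by more than Csf1r did. Slc11a1, a metal transporter of the phagosome, had 217 and 226 CPM in IL6KO isolates, against 79.4 and 75.6 CPM in WT isolates. The groups lay far apart relative to their replicates, at 1.52 on the log2 scale (SE 0.09, adjusted p = 0.000379). Per Csf1r count Slc11a1 was at 0.143 and 0.148 in IL6KO isolates and at 0.0864 and 0.0868 in WT isolates. Cebpa, a transcription factor of myeloid cells, changed by 1.07 (SE 0.10), and Clec4a1, a C-type lectin receptor of monocytes, by 1.14 (SE 0.09). All 3 calls held in the 11 alternatives. Acod1 went the other way: this enzyme, which makes itaconate in activated macrophages, had 37.1 and 47.0 CPM in IL6KO isolates and 110 and 142 CPM in WT isolates (-1.58, SE 0.17, adjusted p = 0.00998). Per Csf1r count Acod1 was at 0.0244 and 0.0308 in IL6KO isolates and at 0.120 and 0.163 in WT isolates, and its call held in all 11 alternatives. Nos2, the inducible nitric oxide synthase, was lower as well (-0.57, SE 0.10, adjusted p = 0.0207), but not called without WT 1, without WT 2 or with library size set to T cell counts (adjusted p of at most 0.142 without a library).

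Among antigen presentation genes, 4 of 15 tested class I genes were higher and 1 lower (median 0.32), and 3 of 14 tested class II genes were higher and 0 lower (median 0.54). Without IL6KO 2 the class II median was 0.23. Psmb8, an immunoproteasome subunit that shapes peptides for class I, had 329 and 290 CPM in IL6KO isolates, against 116 and 117 CPM in WT isolates (1.41, SE 0.09, adjusted p = 0.000591). Psme4, a proteasome activator outside these lists, was at 279 and 278 CPM in IL6KO isolates and at 120 and 115 CPM in WT isolates (1.24, SE 0.08, adjusted p = 0.000591). Without WT 1 and without WT 2 there were 3 and 2 class I genes higher, and 0 class II genes in either run. Both of these calls, Psmb8 and Psme4, held in all 11 alternatives and neither gene's genotypes overlapped. Of class II, RT1-DMa and RT1-DMb, chaperones that load peptides, changed by 0.67 (SE 0.11) and 0.56 (SE 0.11). RT1-Db2, a class II beta chain gene, had 9.196 and 16.1 CPM in IL6KO isolates and 0.963 and 0.155 CPM in WT isolates (4.52, SE 0.64, adjusted p = 0.0262). The RT1-Db2 call ended under the replicate block, without WT 1 and without WT 2 (adjusted p of at most 0.0919).

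The rat class I genes (RT1) changed in opposite directions. RT1-CE10 had 244 and 246 CPM in IL6KO isolates and 63.2 and 59.0 CPM in WT isolates (2.01, SE 0.09). RT1-CE1 had 78.6 and 81.5 CPM in IL6KO isolates and 13.6 and 11.8 CPM in WT isolates (2.66, SE 0.11). RT1-A1 had 273 and 277 CPM in IL6KO isolates and 571 and 527 CPM in WT isolates (-0.997, SE 0.08), while RT1-A2 was higher by 0.78 (SE 0.08; adjusted p = 0.0571 without WT 2). In whole lung RT1-CE1, RT1-CE10 and RT1-A1 were called in the same directions, and RT1-A2 in the opposite one (-0.55). These genes are near-identical copies that vary between rat strains and haplotypes, so the counting could split reads among them and their values are uncertain.

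The neighbourhood of Psmb8 was looked at after these values were seen. Among Psmb8 and its 30 protein-coding neighbours on each side in the GRCr8 order, 46 genes were tested and 9 called (19.6%). The window was chosen because Psmb8 and RT1 genes had been called, and it counts Psmb8 itself. Its share therefore cannot be weighed against the 6.40% of all genes or against the Il6 window below. Of these 9 genes, 6 were higher and 3 lower, and 4 were not RT1 genes: Psmb8, Rxrb (0.46, SE 0.10), Vps52 (-0.88, SE 0.09) and Rps18 (-0.48, SE 0.08). Rxrb and Vps52 were not called without WT 1 or without WT 2 (adjusted p of at most 0.245), and Rxrb also lost the call without IL6KO 1 and under limma-voom. Around Il6, 12 neighbours in a window of the same width were tested. None was called by edgeR, DESeq2 or limma-voom, and 1 had an unadjusted p under 0.05. Whether the IL6KO and WT rats share an RT1 haplotype is not stated in the sources used here.

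Of 35 tested interferon response genes, 9 were called higher, 1 was lower and 25 were not called (median 0.52). Ifih1, an RNA sensor, changed by 0.78 (SE 0.11), and Gbp2 and Gbp4, guanylate-binding proteins, by 0.60 (SE 0.09) and 0.59 (SE 0.09). Ifit1, an inhibitor of viral translation, had 46.9 and 26.3 CPM in IL6KO isolates, against 4.99 and 7.35 CPM in WT isolates (2.56, SE 0.39, adjusted p = 0.0469). The IL6KO levels were above both WT levels but differed from each other, and in whole lung Ifit1 ranged from 0.358 to 19.98 CPM among IL6KO libraries and from 19.3 to 27.1 CPM among WT libraries. Its call ended without WT 1, without WT 2, under the replicate block and with no filter on low counts (adjusted p of at most 0.291). Ifi27 was the member called lower, with 64.1 and 62.4 CPM in IL6KO isolates and 178 and 134 CPM in WT isolates (-1.30, SE 0.14). The higher calls numbered 1 without WT 1 and 0 without WT 2, while that of Ifi27 held in all 11 alternatives.

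Of 26 tested genes of AP-1 and the immediate early response, 5 were higher and 0 lower (median 0.22). Dusp1, a phosphatase that switches off MAP kinases, had 1874 and 1760 CPM in IL6KO isolates and 1129 and 1140 CPM in WT isolates (0.68, SE 0.07, adjusted p = 0.00536). Atf3 and Klf4, stress-induced transcription factors, changed by 0.69 (SE 0.11) and 0.65 (SE 0.11). No member was called without WT 1, and 1 was called without WT 2.

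**Figure D3:**
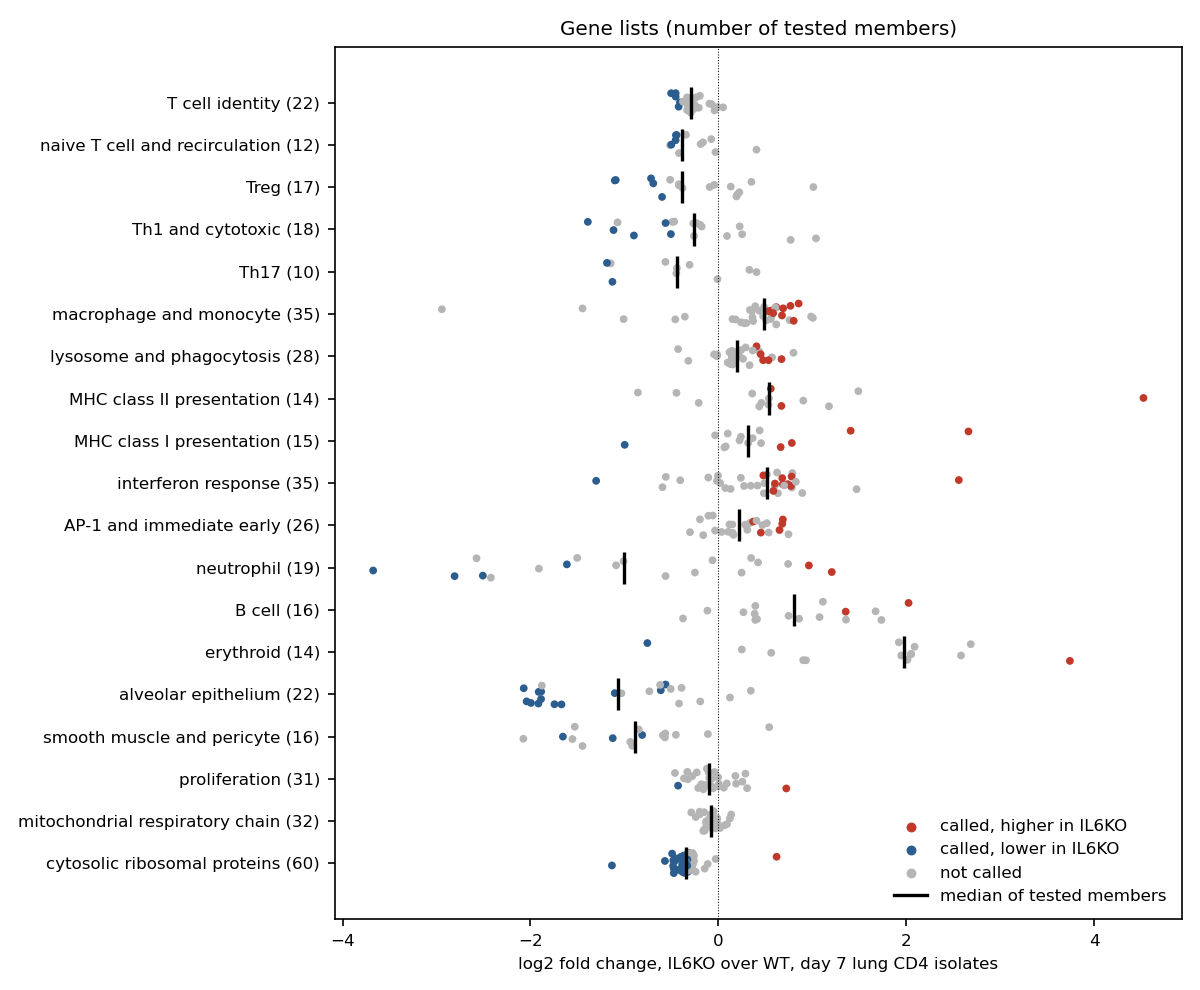
Log2 fold change of IL6KO over WT (horizontal axis) for each tested member of 19 gene lists (rows, with the number tested), red where called higher in IL6KO, blue where called lower and grey where not called, and a black bar at the median. The medians of the T cell, alveolar epithelial and ribosomal protein lists lie left of 0, while those of the macrophage, MHC and interferon lists lie right of it. The T cell and ribosomal medians were 0.02 and -0.02 when library size was set to T cell counts. For the T cell list a median near 0 is built into that scaling.

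Cytosolic ribosomal protein genes had the most calls of the 44 gene lists, with 41 of 60 tested members lower and 1 higher (median -0.34). Rpl23a had 902 and 884 CPM in IL6KO isolates and 1301 and 1212 CPM in WT isolates (-0.49, SE 0.08), and Rps9 changed by -0.47 (SE 0.07). With library size set to T cell counts 1 member was lower and the median was -0.02. The calls also fell to 1 member lower without WT 1 and 1 without WT 2, while the median was then -0.31 and -0.37. Rpl17 was the member called higher (0.62, SE 0.08). Rpl30 had 168 and 176 CPM in IL6KO isolates and 390 and 364 CPM in WT isolates (-1.13, SE 0.08, adjusted p = 0.00125), a call that held in all 11 alternatives. In whole lung Rpl30 had 990, 1825 and 2121 counts in IL6KO libraries and 1276, 1239 and 1 in WT libraries, so a single library had 1 count of a gene abundant in the other 5. How that count arose was not tested, and Rpl30 values are uncertain for that reason. Of the 32 tested respiratory chain genes 0 were called by edgeR, DESeq2 or limma-voom, 3 had an unadjusted p under 0.05, and the median was -0.07.

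Of 22 tested alveolar epithelial genes 12 were lower and 0 higher (median -1.07). Sftpb, a surfactant protein of alveolar type II cells, had 110 and 103 CPM in IL6KO isolates, against 456 and 331 CPM in WT isolates (-1.89, SE 0.16, adjusted p = 0.00612). Lamp3, a lamellar body protein also found in mature dendritic cells, changed by -2.07 (SE 0.21), and Cldn18 and Krt8, epithelial junction and filament proteins, by -1.92 (SE 0.23) and -1.89 (SE 0.23). Sftpb and Lamp3 kept their calls in all 11 alternatives, Cldn18 and Krt8 lost theirs without WT 1 (adjusted p of at most 0.0747), and 5 members were lower without WT 1 and 6 without IL6KO 1. In whole lung Sftpb overlapped between the genotypes, with 3673, 3546 and 5020 CPM in IL6KO libraries and 3767, 3792 and 4590 CPM in WT libraries. Levels in isolates were thus a small part of those of the tissue. Smooth muscle genes had 3 of 16 members lower and 0 higher (median -0.88), and fibroblast genes 2 of 23 lower and 0 higher (median -0.72). Both lists had 0 members called without WT 1 or without WT 2.

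Blood cell genes other than T cells and macrophages varied within a genotype. Erythroid genes had a median of 1.98 over 14 tested members, of which 1 was higher (Ahsp, a haemoglobin chaperone, 3.74, SE 0.53) and 1 lower (Tfrc, the transferrin receptor, -0.76, SE 0.08). The number higher depended on the tool, with 7 of 13 under DESeq2, 4 of 14 under limma-voom and 7 of 14 with library size set to T cell counts. Kel and Rhd, blood group antigens, and Hemgn, an erythroid nuclear protein, were among the 12 largest increases, at 5.28 (SE 0.92), 3.36 (SE 0.56) and 3.81 (SE 0.53). Ahsp had 8.285 and 4.08 CPM in IL6KO isolates and 0.613 and 0.309 CPM in WT isolates. The calls of Ahsp, Kel, Rhd, Hemgn and Tfrc ended without WT 1 and without WT 2 (adjusted p of at most 0.190), and those of Kel and Rhd also under limma-voom. The 5 B cell markers summed to 39.0 and 27.9 CPM in IL6KO isolates and to 21.4 and 20.03 CPM in WT isolates. B cell genes had 2 of 16 members higher and 0 lower (median 0.80), and 0 called without WT 1 or without WT 2. Neutrophil genes had 2 of 19 higher and 4 lower (median -1.01), including Lcn2, a siderophore-binding protein of neutrophils and epithelium, with 5.05 and 5.47 CPM in IL6KO isolates and 30.6 and 29.3 CPM in WT isolates (-2.51, SE 0.14, adjusted p = 0.000379).

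A few genes were almost absent from one genotype. Dsg3, a desmosomal cadherin, had 0 counts in both IL6KO isolates and 15.3 and 15.4 CPM in WT isolates, at least 121-fold lower against a floor of 3 counts over the group. Erp27, a protein of the endoplasmic reticulum, had 0.746 and 0.781 CPM in IL6KO isolates and 49.99 and 49.74 CPM in WT isolates (-6.01, SE 0.16, adjusted p = 1.23e-05). The replicates of each genotype were nearly alike for both genes. Nefh, a neurofilament subunit, and Arhgef10, a guanine nucleotide exchange factor, changed by -4.60 (SE 0.36) and -3.39 (SE 0.17). Erp27 and Nefh had few counts in IL6KO isolates, where an SE obtained from the F statistic can understate counting error. Neb, the giant muscle protein nebulin, was higher, with 91.9 and 93.8 CPM in IL6KO isolates and 11.4 and 17.8 CPM in WT isolates (2.66, SE 0.20, adjusted p = 0.00574). All 5 calls held in the 11 alternatives.

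Whole lung did not show the same separation for Dsg3 and Nefh. Dsg3 had 127, 67 and 172 counts in IL6KO lungs and 85, 283 and 84 in WT lungs. Nefh had 2, 2 and 1 counts in IL6KO lungs and 3, 121 and 4 in WT lungs. Nefh counts were thus high in 1 WT lung and near 0 in the other lungs, within 1 genotype.

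In whole lung at day 7, 300 of 14368 genes were called (2.09%), 134 higher (0.933%) and 166 lower (1.16%) in IL6KO lungs. Of 11986 genes tested in both, 769 were called in isolates, 213 in lung and 46 in both, which is 5.98% of the isolate calls and 21.6% of the lung calls. The direction was the same for 33 of the 46 genes and opposite for 13. The lung count rested on single libraries, with 94 to 195 genes called without any one of IL6KO 1, IL6KO 2, WT 1, WT 2 and WT 3, and it was 551 under DESeq2 and 543 under the replicate block. The 46 were 17 to 52 with 1 lung library left out, 76 under DESeq2 and 75 under the block. Socs3 was among the same: it had 12.2, 9.45 and 11.7 CPM in IL6KO lungs and 17.6, 20.9 and 19.6 CPM in WT lungs (-0.80, SE 0.13, adjusted p = 0.0178). The Socs3 fold change in isolates was further from 0 than in lung by -0.79 (SE 0.20, adjusted p of the difference 0.0385).

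The effect in isolates differed from that in whole lung for 949 of 14772 genes (6.42%) by a test of the difference over all 10 libraries, 277 upward (1.88%) and 672 downward (4.55%). The median difference was -0.11, and the count was 341 without isolate WT 1, 528 without isolate IL6KO 2, 514 without lung IL6KO 2 and 586 without lung WT 2. The median was -0.018 without lung IL6KO 2, -0.022 without lung WT 1 and -0.021 without lung WT 2, and the split was then 204 upward and 310 downward, 346 and 416, and 222 and 364. The 2 tables were deposited separately and were joined on 22071 shared symbols. Gzmk and Nkg7 went in opposite directions: Gzmk changed by -1.39 in isolates, while it had 20.5, 22.7 and 16.0 CPM in IL6KO lungs and 4.97, 8.485 and 8.62 CPM in WT lungs (1.41, SE 0.21). Nkg7 changed by -1.12 in isolates and by 1.13 (SE 0.22) in lung. The differences were -2.89 (SE 0.36, adjusted p = 0.00136) for Gzmk and -2.33 (SE 0.36, adjusted p = 0.0041) for Nkg7. Of the Th1 and cytotoxic genes, 5 of 18 were lower in isolates, while 8 of the 17 tested in lung were higher and 0 lower (median 1.05). Csf1r, at 304, 284 and 281 CPM in IL6KO lungs and 277, 282 and 286 CPM in WT lungs, overlapped in lung, and the difference of effects was 0.64 (SE 0.11, adjusted p = 0.00668).

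**Figure D4:**
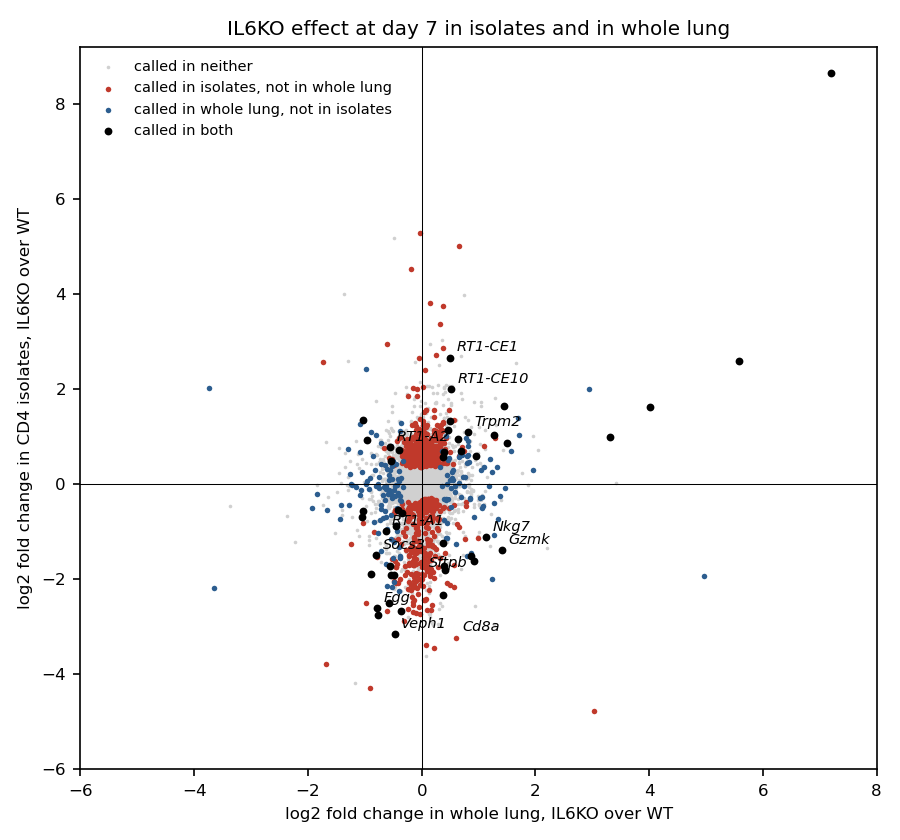
Log2 fold change of IL6KO over WT in day 7 CD4 isolates (vertical axis) against that in day 7 whole lung (horizontal axis) for genes tested in both, of which 2 lie outside the axes. Black points are the 46 genes called in both, red those called in isolates and not in lung, and blue those called in lung and not in isolates. Socs3 lies lower in both, while Gzmk and Nkg7 lie lower in isolates and higher in lung.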

How the data were processed

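Raw RNA-seq counts per gene were used from 2 tables, day 7 lung CD4 isolates (4 libraries) and day 7 whole lung (6 libraries). The authors deposited whole-number counts per gene, 1 column per sample; per the labels, isolates were made by MACS, and RNA was purified with Trizol, a silica-column kit and DNase. The submitters' processing notes name GRCm38, which is a mouse build, for these rat samples. The gene symbols include rat names such as RT1-A1 and RT1-CE10, so the genes were named by a rat annotation. Which aligner, counter, strand setting and annotation release were used is not given in the sources used here. No count column was left without a label.

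Genes were filtered with filterByExpr, given TMM factors and modelled in edgeR 4.0.16 (R 4.3.3; glmQLFit and glmQLFTest, robust). P-values were adjusted by Benjamini and Hochberg's method across every tested gene. Isolates and lung were fitted separately, and the difference of their genotype effects in 1 fit over 10 libraries. The fits were tested on simulated counts. Alternatives were DESeq2 1.42.0, limma-voom (limma 3.58.1), no filter on low counts, RLE size factors, a minimum mean of 5 CPM, the replicate number as a block, leaving out each library, a fold-change limit, and, added after the data were seen, library size set to the summed T cell identity counts. With 2 libraries a group, leaving one out assumes that the lone sample varies like the other genotype's pair.

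Replicates differed by more than sampling noise, so none was counted as a duplicate. The 44 gene lists and the members were chosen with earlier results of these data known. Genes named were the pathway and marker genes, the 12 largest called changes per direction without overlap and at a mean of at least 1 CPM, the 8 largest at a mean of at least 50 CPM, and up to 4 per list by smallest p; others are said to be chosen after their values were seen, as were the genes of the Psmb8 window. Genes with predicted names were not named, and 1 gene picked by the rule is not reported here. GRCr8 RefSeq served for gene order (91.3% of the 12243 tested symbols matched) and promoter sequences, matched by symbol.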

Additional observations from a re-analysis of the deposited data

Results flagged for a closer look

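The genotype effect differed between isolates and whole lung for 949 genes by edgeR's test of the difference (isolate effect minus lung effect, adjusted p under 0.05), and those of them that are named in the report or the other observations are given here on the log2 scale, beside a median of -0.11 over all genes. The effect in isolates lay above that in lung by 5.26 for Kel, 4.63 for RT1-Db2, 3.59 for Hemgn, 2.62 for Neb, 2.08 for RT1-CE1, 1.80 for Ccl24, 1.40 for RT1-CE10, 1.39 for Slc11a1 and 1.25 for RT1-A2. Further positive differences were 1.22 for Pparg, 1.10 for Psmb8, 1.03 for Ptpn6, 1.02 for Aurka, 0.95 for C5ar1, 0.95 for Cebpa, 0.91 for Ctsz, 0.85 for Atf3 and 0.84 for Clec4a1. Further positive differences were 0.82 for Psme4, 0.71 for Nr1h3, 0.65 for Ifih1, 0.64 for Csf1r, 0.56 for Id3, 0.54 for Npc1, 0.52 for Ndrg1 and 0.48 for Rpl17.

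The fitted difference of -10.91 for Dsg3 is no measured size, since Dsg3 was at 0 counts in both IL6KO isolates and the fit then depends on its prior count. The effect in isolates lay below that in lung by -4.12 for Erp27, -3.91 for Cd8a, -3.56 for Arhgef10, -2.89 for Gzmk, -2.33 for Nkg7, -2.32 for Acod1, -2.004 for Lag3 and -1.98 for Sftpb. Erp27 and Acod1 were too low to be tested in whole lung by itself, so their differences rest on lung levels near the floor. Erp27 had 0.388, 0.303 and 0.563 CPM in IL6KO lungs and 2.25, 2.33 and 0.375 CPM in WT lungs. Further negative differences were -1.93 for Lamp3, -1.84 for Cd8b, -1.78 for Krt8, -1.71 for Cldn18, -1.63 for Il18rap, -1.61 for Lcn2, -1.58 for Ifi27, -1.08 for Il1r1 and -1.06 for Cd247. Further negative differences were -0.99 for Il2ra, -0.99 for Nos2, -0.79 for Tfrc, -0.79 for Socs3, -0.73 for Aqp1, -0.64 for Rpl23a, -0.63 for Smad5 and -0.52 for Vps52. Gzmk, Nkg7, C5ar1, Ccl24 and RT1-A2 were called in opposite directions in the 2 sample types.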

How the results depend on the processing

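The isolate count of 784 was within 1.5 times under DESeq2 (856), no filter on low counts (1164), RLE size factors (828), limma-voom (551) and a mean of at least 5 CPM (713). It was 256 with a log2 fold change of at least 1 and 3418 with library size set to T cell counts, 3184 of them higher. Leaving out 1 library gave 76 (without WT 1) to 970 (without IL6KO 1). The lung count of 300 was 551 under DESeq2 and 94 to 372 with 1 library left out. The count for the difference of effects, 949, was 923 to 1253 under other tools, scaling and filter, and 341 to 1111 with 1 library left out. No named gene that was called changed sign in the alternatives run, but the balance of the isolate calls did: 428 higher and 356 lower became 29 and 47 without WT 1, 42 and 73 without WT 2, and 75 and 181 with the fold-change limit. Of the 44 list medians, 18 changed sign with library size set to T cell counts and at most 6 under any other alternative.

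With the replicate number as a block the counts were 1084 in isolates, 543 in lung and 1192 for the difference. The numbers were not shown to pair the samples: the deviations of same-numbered libraries correlated at -0.0004 in isolates and at 0.056, 0.078 and 0.256 in lung, where 2 of 3 pairs matched best on their own number.

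With 2 libraries a genotype, changes well under 1 on the log2 scale rest on the pooled spread, and the cause of the drop without a WT library was not tested. Depth bounds a gene at 0 counts between 0.232 and 0.261 CPM.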

Other observations

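Of 27 tested complement genes 3 were higher (11.1%, against 3.50% of all genes) and 0 lower (median 0.31): C3, the central complement protein, changed by 0.95 (SE 0.17), Cfp, the stabiliser properdin, by 0.76 (SE 0.08), and C5ar1, the receptor for C5a, by 0.49 (SE 0.10). The natural killer cell genes called higher (15.4% of the list) were the receptors Cd244 (0.98, SE 0.14) and Klra2 (0.76, SE 0.16). Of 26 tested hypoxia and glycolysis genes 4 were higher (15.4%) and 1 lower (median -0.05, and 0.27 with library size set to T cell counts), among them Ndrg1, a stress response gene (0.61, SE 0.09), and Ddit4, an inhibitor of mTORC1 signalling (0.59, SE 0.09). Of 22 genes linked to pulmonary hypertension Id3, a BMP target, was higher (0.61, SE 0.09), and Aqp1, a water channel, and Smad5, a BMP signal carrier, were lower (-0.92, SE 0.19 and -0.57, SE 0.11). The calls of these named genes ended without WT 1 and without WT 2 (adjusted p of at most 0.223), and those of Klra2, Aqp1 and Smad5 also under limma-voom.

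Lipid genes had 2 of 26 members higher (7.69%), the nuclear receptors Pparg (1.33, SE 0.17) and Nr1h3 (0.96, SE 0.16), and 0 lower. Of 42 tested chemokine and receptor genes 2 were higher, Ccl24 and Cx3cr1, and 0 lower. Those 2 are 4.76% of the list, near the 3.50% of all genes. These 4 calls also ended without WT 1 and without WT 2 (adjusted p of at most 0.165), and that of Ccl24 without IL6KO 2. Dendritic cell genes had 2 higher and 2 lower of 20 members. The RNA exosome list had 0 of 12 members called by edgeR, DESeq2 or limma-voom, and 0 with an unadjusted p under 0.05.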
